A study of Homo sapiens with 4 samples.

Results

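The genes described are 7 ABC (ATP-binding cassette) transporters that pump drugs and drug conjugates out of cells, out of 58735 genes in the deposited tables. ABCB1, ABCC1, ABCC2, ABCC3, ABCC4, ABCC5 and ABCG2 were taken from the tables, with ABCB1 on chromosome 7 and ABCC4 on chromosome 13 to be set against the others. The list was chosen by name with the FPKM values of both labels in these libraries already known, so their own differences between the groups are a description, and calls on them count as no evidence. RNA had been sequenced from HT8 cells, a human line whose tissue label is colon cancer, in 2 libraries whose genotype label is PPDPF knockdown (HT8-cas1) and 2 labelled control (HT8). The sources used here do not give what HT8 and HT8-cas1 abbreviate, how PPDPF was targeted, or whether replicates are separate cultures or clones. P-values therefore measure only the spread between these libraries, which may be technical.

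ABC transporters use ATP hydrolysis to move substrates across a membrane. ABCB1 (P-glycoprotein), ABCG2 (breast cancer resistance protein) and the multidrug resistance proteins of the ABCC subfamily limit how much of a drug accumulates in a cell, and they are known from the study of multidrug resistance in tumours. In intestinal epithelium ABCB1, ABCC2 and ABCG2 sit in the apical membrane, which faces the gut lumen, while ABCC1 and ABCC3 sit in the basolateral membrane.

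Totals of reads in genes ranged from 17069628 to 19479906 over the 4 libraries. PPDPF itself was not lower under its knockdown label, with 281 and 283 FPKM (fragments per unit of exon length and of sequencing depth) in the libraries labelled knockdown, against 237 and 266 FPKM in control (limma adjusted p = 0.0940, and 0.0233 without control replicate 2). Whether the labels of the groups were exchanged, which would turn every direction given, was not tested. The groups are therefore called the libraries labelled knockdown and the controls throughout, and each rise or fall is that of the libraries labelled knockdown relative to control. Of 12 markers of colon epithelium, 10 averaged at least 1 FPKM, and GPA33 and CEACAM5 did not. None of 11 markers of fibroblasts, endothelium, leukocytes, hepatocytes and muscle reached 1 FPKM, and 5 of them were at 0 in every library. The summed level of these 11 markers was 0.677 to 0.772 FPKM in the libraries labelled knockdown and 0.483 to 0.540 FPKM in control, and that of the 12 colon markers was 3143 to 3168 FPKM in the libraries labelled knockdown and 2624 to 2807 FPKM in control. Mitochondrial genes took 2.35% and 2.19% of reads in the libraries labelled knockdown, against 2.87% and 2.76% in control. With values scaled to non-mitochondrial reads, 1881 of 12777 genes were called higher and 2034 lower (limma, adjusted p under 0.05). Without that scaling, 2152 were called higher and 1662 lower, so the balance of the 2 directions depends on it. The part of the marker differences in the results was not tested. In bulk RNA, a change in the number of cells that express a gene and a change in RNA per cell cannot be told apart.

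The stretches before the start sites of 3 of the genes are shown because ABCB1 and ABCC2 had the highest ratios between the groups and ABCC4 is the chromosome 13 gene to be compared. Each is the 250 bases before a RefSeq start on the gene's own strand (GRCh38.p14). The ABCB1 stretch lies at chr7:87600885-87601134 on the minus strand, before the start site nearer to the body of the gene, and that of ABCC2 at chr10:99782390-99782639 on the plus strand. The ABCC4 stretch lies at chr13:95301452-95301701 on the minus strand.
ABCB1: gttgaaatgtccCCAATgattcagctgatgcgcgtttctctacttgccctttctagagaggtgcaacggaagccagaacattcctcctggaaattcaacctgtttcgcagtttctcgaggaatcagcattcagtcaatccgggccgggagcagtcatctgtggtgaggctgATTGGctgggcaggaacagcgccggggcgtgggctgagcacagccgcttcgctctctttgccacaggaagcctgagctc
ABCC2: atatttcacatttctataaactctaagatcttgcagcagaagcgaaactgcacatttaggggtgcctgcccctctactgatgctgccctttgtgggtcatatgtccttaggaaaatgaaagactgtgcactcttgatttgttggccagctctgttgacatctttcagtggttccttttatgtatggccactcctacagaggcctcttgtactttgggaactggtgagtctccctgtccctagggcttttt
ABCC4: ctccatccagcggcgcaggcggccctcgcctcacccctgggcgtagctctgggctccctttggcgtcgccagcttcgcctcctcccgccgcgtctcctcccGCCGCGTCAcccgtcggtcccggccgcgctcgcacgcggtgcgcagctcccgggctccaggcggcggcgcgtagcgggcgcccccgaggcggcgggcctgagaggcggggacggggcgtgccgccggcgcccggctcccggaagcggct
Capitals mark matches, on either strand, to the motif CCAAT, the motif GGGCGG or the motif TGACNNNGC, none of which overlapped another. CCAAT is the core letters of the element known from the ABCB1 promoter that NF-Y and the Y-box protein YBX1 bind, GGGCGG those of the GC box of SP1, and TGACNNNGC those of the antioxidant response element of NFE2L2. ABCB1 held 2 matches to CCAAT, which 32.0% of 35116 such windows over the genome hold at least once. ABCC4 held 1 match to TGACNNNGC, found in 10.9% of the windows, and ABCC2 held none of the 3 motifs. In the other members' windows, GGGCGG was found once before ABCC5 and in 2 of 5 windows of ABCG2, against 42.6% of all windows. Those 2 windows of ABCG2 overlap and hold the same matches, so they are not separate finds. A second ABCB1 start (chr7:87713296-87713545 before it) held no match. Reads had been summed per gene, so gene values do not tell start sites apart, and windows for ABCC1 and ABCC3 were not used here.

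Every member but ABCC5 was higher in the libraries labelled knockdown, and the ratio of group means ran from 0.866 for ABCC5 to 3.33 for ABCC2. ABCC2 and ABCB1 stood above the rest at 3.33 and 2.82, followed by ABCG2 at 1.47, ABCC4 at 1.27, ABCC1 at 1.21 and ABCC3 at 1.12. In each of the 7 genes the libraries of one label did not overlap those of the other, 6 with the knockdown label above (ABCC2, which was not fitted, among them) and 1 below. Among all 12777 genes tested, 35.9% lay above in this way and 33.8% below. Of the 6 members that reached the filter of a mean of 1 FPKM, 4 were called higher and 0 lower (limma, adjusted p under 0.05), where 16.8% of all tested genes were called higher and 13.0% lower, or 29.9% in either direction. Since the members were chosen with these values known, nothing is read from either count.

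**Figure D1:**
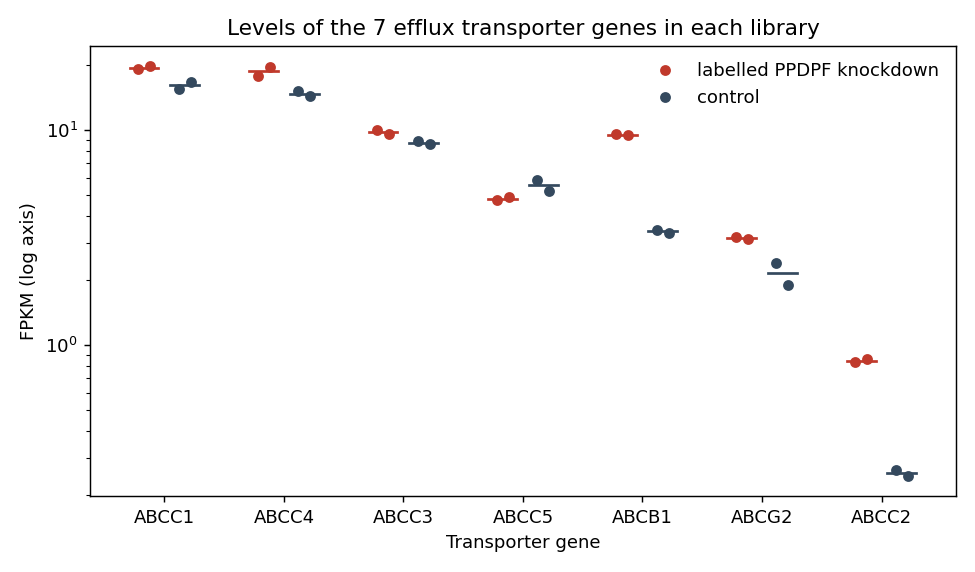
FPKM on a log axis for the 7 transporter genes, with 1 point per library (red for the label PPDPF knockdown, dark for control) and a bar at each group mean. ABCB1 and ABCC2 show the widest gaps between labels, at 2.82 and 3.33 times control, and ABCC5 is the member lying below control, at 0.866.

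Among the apical pumps, ABCB1 (ENSG00000085563, GRCh38 chromosome 7, 87503633 to 87713323, minus strand), which exports bulky hydrophobic drugs, had 9.55 and 9.52 FPKM in the libraries labelled knockdown, against 3.45 and 3.32 FPKM in control. These levels came from 957 and 937 reads in the libraries labelled knockdown, against 352 and 379 reads in control. Both libraries labelled knockdown were thus well above both controls, and the gap between labels was far wider than that within either. The means were 9.53 ± 0.0232 FPKM in the libraries labelled knockdown and 3.38 ± 0.0893 FPKM in control (SD, n = 2 each). On the scale of log2(FPKM + 1), used for all fits below and known to understate the change of low genes, this is a log2 fold change of 1.26 (SE 0.0519). Genes with a ratio of means as high as that of ABCB1 or higher made up 0.704% of the tested genes, ABCB1 included.

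ABCC2 (ENSG00000023839, chromosome 10, 99782640 to 99852594), which secretes glucuronide and glutathione conjugates such as conjugated bilirubin, was the least abundant member. It had 0.835 and 0.858 FPKM in the libraries labelled knockdown, against 0.261 and 0.247 FPKM in control, from 113 and 114 reads in the libraries labelled knockdown against 36 and 38 in control. Its level was low in all libraries, and its mean was under the filter, so it did not enter the fit. ABCG2 (ENSG00000118777, chromosome 4, 88090264 to 88231322), a half-size pump that works as a dimer and also carries urate, had 3.19 and 3.12 FPKM in the libraries labelled knockdown, against 2.40 and 1.91 FPKM in control. The 2 controls of ABCG2 differed more from each other than the 2 libraries labelled knockdown did. Its log2 fold change was 0.40 (SE 0.104), and it was 0.52 without control replicate 1 and 0.29 without control replicate 2. The 3 pumps known as apical thus had the 3 highest ratios of the 7, a grouping made after the values were seen.

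The 5 ABCC members span the widest range of levels. ABCC1 (ENSG00000103222, chromosome 16, 15949577 to 16143074), which exports glutathione conjugates such as leukotrienes, had 19.3 and 19.8 FPKM in the libraries labelled knockdown, against 15.6 and 16.7 FPKM in control. ABCC3 (ENSG00000108846, chromosome 17, 50634777 to 50692252), a basolateral exporter of bile acids and glucuronides, had 9.998 and 9.62 FPKM in the libraries labelled knockdown, against 8.88 and 8.58 FPKM in control. For both genes the label difference was small, with log2 fold changes of 0.26 (SE 0.0477) and 0.15 (SE 0.0477). ABCC4 (ENSG00000125257, chromosome 13, 95019829 to 95301475), which exports cyclic nucleotides, prostaglandins and nucleoside drugs, had 17.9 and 19.6 FPKM in the libraries labelled knockdown, against 15.1 and 14.5 FPKM in control. For ABCC4 the libraries labelled knockdown differed from each other by less than either stood above the higher control, with a log2 fold change of 0.32 (SE 0.0577). ABCC5 (ENSG00000114770, chromosome 3, 183919934 to 184018015), another exporter of cyclic nucleotides and nucleotide analogues, had 4.71 and 4.86 FPKM in the libraries labelled knockdown, against 5.85 and 5.21 FPKM in control. It was the member with a lower level under the knockdown label, with a log2 fold change of -0.17 (SE 0.0700).

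In the libraries labelled knockdown the order by mean FPKM was ABCC1, ABCC4, ABCC3, ABCB1, ABCC5, ABCG2 and ABCC2, and in control ABCC5 stood before ABCB1 with the order otherwise alike. In the libraries labelled knockdown ABCC1 and ABCC4 overlapped in range, while no other neighbours in that order did. In control no neighbours overlapped. The 7 genes together summed to 65.4 and 67.4 FPKM in the libraries labelled knockdown, against 51.6 and 50.4 FPKM in control, a ratio of 1.30. ABCB1 made up 14.6% and 14.1% of that sum in the libraries labelled knockdown, against 6.68% and 6.59% in control, and ABCC5 made up 7.21% and 7.21% in the libraries labelled knockdown, against 11.3% and 10.3% in control. ABCC4 made up 27.3% and 29.1% in the libraries labelled knockdown, against 29.3% and 28.7% in control, ranges that overlap. No exon base of any member is shared with another annotated gene, although RUNDC3B lies across ABCB1 on the opposite strand, with means of 0.124 FPKM in the libraries labelled knockdown and 0.116 FPKM in control.

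Genes around ABCB1 and around ABCC4 were on balance higher under the knockdown label, and ABCB1 stood far above its surroundings while ABCC4 did not. Within 5 Mb of ABCB1, 23 other genes were tested, of which 9 rose and 1 fell (39.1% and 4.35%, beside 16.8% and 13.0% of all genes tested), with a median log2 fold change of 0.23. ABCB1 exceeded that median by 1.03. The median was 0.25 over the 5 genes on the side of lower coordinates and 0.20 over the 18 on the other side. Across 7q from 87 Mb to the last tested gene start at 151.6 Mb, a stretch already known from earlier results of these data to be higher as a whole, 154 of 319 tested genes rose (48.3%) and 8 fell (2.51%), with a median of 0.26, and 3 of the 319 equalled or exceeded ABCB1. These 3, named after their values were seen, were CAV1, the coat protein of caveolae (log2 fold change 1.49, limma adjusted p = 0.000904), and the short genes MIR106B and RF00019, which were not called. Each of these 2 was listed at 0 in control replicate 1, and both passed the filter only through the libraries labelled knockdown. Their control means were 0.310 FPKM for MIR106B and 0.553 FPKM for RF00019. With a library left out, their log2 fold changes ran from 0.43 to 2.22 for MIR106B and from 0.75 to 1.82 for RF00019. The count of 3 thus rests on them. SEMA3A, a secreted guidance cue named after its values were seen, was the gene within 5 Mb that fell. It had 2.77 and 2.71 FPKM in the libraries labelled knockdown, against 6.95 and 7.004 FPKM in control (limma adjusted p = 0.00107).

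Of the 4 nearest tested genes on each side of ABCB1, some rose and others were not called, and none had a log2 fold change near that of ABCB1. On the lower side, CROT, a peroxisomal carnitine acyltransferase, had 1.87 and 2.40 FPKM in the libraries labelled knockdown, against 2.31 and 2.30 FPKM in control (log2 fold change -0.08). Next to it, the noncoding gene TP53TG1, TMEM243, a transmembrane protein gene, and DMTF1, a cyclin D binding transcription factor, rose by log2 fold changes of 0.37, 0.25 and 0.33 (limma adjusted p = 0.0251, 0.0348 and 0.0154). On the other side SLC25A40, a mitochondrial carrier, DBF4, an activator of the CDC7 kinase, and ADAM22 did not pass the test, with log2 fold changes of 0.16, -0.03 and -0.26. With limma-voom on whole reads ADAM22 was called lower, at -0.53 (limma adjusted p = 0.0022). ADAM22 averaged 0.865 FPKM in the libraries labelled knockdown and 1.23 FPKM in control. It thus passed the filter only through its level in control, and nothing is read from that call. SRI, the calcium-binding protein sorcin that is known to be co-amplified with ABCB1 in drug-selected cells, had 8.88 and 9.53 FPKM in the libraries labelled knockdown, against 6.82 and 6.80 FPKM in control. It rose by a log2 fold change of 0.39 (SE 0.0536, limma adjusted p = 0.00771), well short of the 1.26 of ABCB1. With 1 library left out, limma adjusted p was 0.0661 to 0.141 for TMEM243 and 0.0615 to 0.0730 for DMTF1, so that both calls were lost without any 1 library, and 0.0430 to 0.104 for TP53TG1, whose call held only without control replicate 2. The paralog ABCB4, a phospholipid pump of the bile canaliculus beside ABCB1, had 0.0975 and 0.168 FPKM in the libraries labelled knockdown, against 0.0810 and 0.0658 FPKM in control, and lay under the filter.

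ABCC4 lay close to the level of its chromosome. Over chromosome 13, 102 of 219 other tested genes rose (46.6%) and 9 fell (4.11%, beside 16.8% rising and 13.0% falling of all genes tested), with a median log2 fold change of 0.24, and 81 of them equalled or exceeded ABCC4. Within 5 Mb the median of 19 genes was 0.24, which ABCC4 exceeded by 0.08, and 8 rose and 0 fell. The sides differed, with a median of 0.02 and 0 called over the 3 genes of lower coordinates, and a median of 0.25 and 8 that rose over the 16 on the other side. Within 10 Mb ABCC4 exceeded the median by 0.15. The nearest genes were flatter: within 2 Mb the median of 6 genes was 0.01, and ABCC4 exceeded it by 0.31. GPR180 and UGGT2, an ER glucosyltransferase, had log2 fold changes of 0.01 and -0.01, and the noncoding DNAJC3-DT one of -0.03. DNAJC3, an ER cochaperone, rose by 0.15 (limma adjusted p = 0.0445), a call lost without any 1 of the libraries (limma adjusted p 0.0693 to 0.164), and TGDS, a sugar nucleotide dehydratase, was not called at 0.27. RNU6-62P, a short pseudogene with 5.11 and 1.16 FPKM in the libraries labelled knockdown, against 2.23 and 2.99 FPKM in control, overlapped between the labels. PTMAP5, the next tested gene at 13.5 Mb away, fell by 0.21 (limma adjusted p = 0.0369, and 0.0496 to 0.135 with a library left out, held only without knockdown replicate 2). Farther on the other side, MBNL2, a splicing regulator, rose to 33.6 and 32.0 FPKM in the libraries labelled knockdown, against 22.0 and 21.6 FPKM in control (log2 fold change 0.57, limma adjusted p = 0.00169). DOCK9, STK24, TM9SF2 and FARP1, named after their values were seen, were the other genes within 5 Mb at or above ABCC4, at 0.35, 0.46, 0.41 and 0.33, of which FARP1 was not called. The call of DOCK9 (limma adjusted p = 0.00995) was lost without any library but knockdown replicate 1 (0.0337 to 0.0507).

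**Figure D2:**
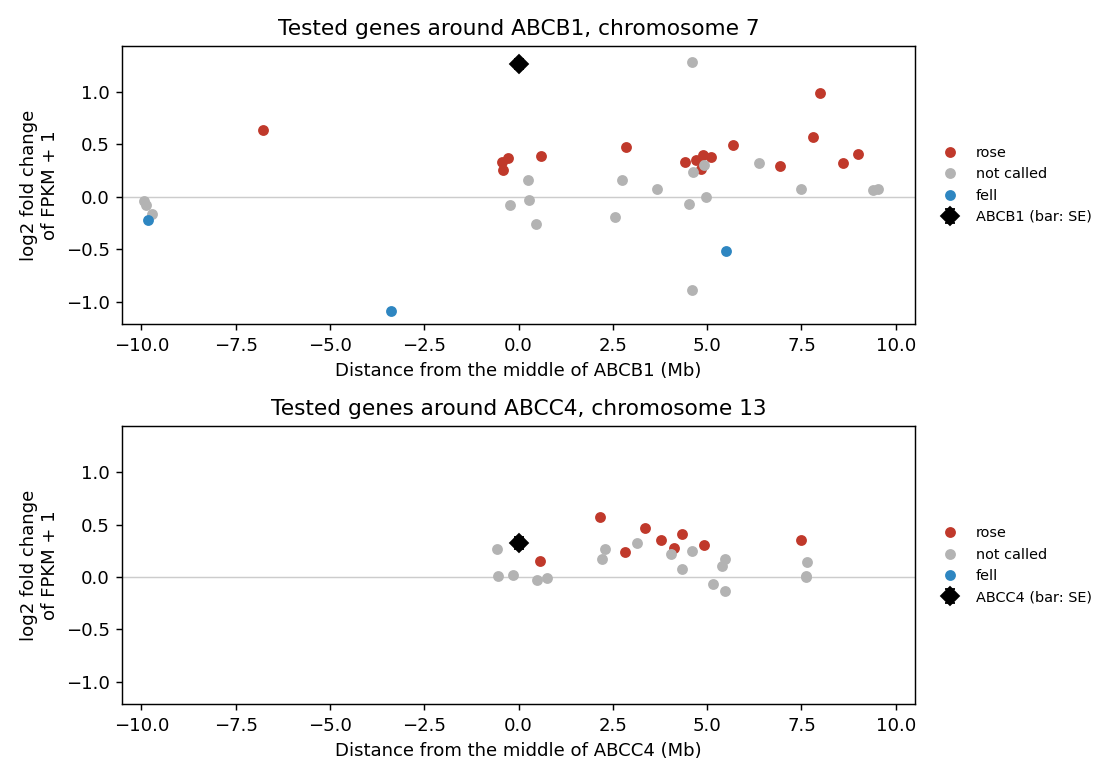
Log2 fold change of FPKM + 1 for each tested gene within 10 Mb of ABCB1 (upper panel) and ABCC4 (lower panel), by distance from the middle of that gene, coloured by its call, with the transporter as a black diamond and its SE. ABCB1 lies at 1.26, above nearly all genes around it, while ABCC4 lies at 0.32, among the genes on its right.

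The other members did not lie in surroundings that were shifted as a whole. The median log2 fold change of tested genes within 5 Mb was -0.06 around ABCG2 (27 genes), -0.04 around ABCC1 (55 genes), -0.03 around ABCC3 (80 genes), 0.01 around ABCC2 (95 genes) and 0.00 around ABCC5 (57 genes), against 0.00 over all tested genes. Relative to these medians ABCG2 was higher by 0.46, ABCC1 by 0.30 and ABCC3 by 0.18, and ABCC5 was lower, at -0.17. ABCG2, ABCC1 and ABCC3 thus exceeded their surroundings by more than ABCC4 did at 5 Mb. Within 2 Mb the excess was 0.47 for ABCG2, 0.30 for ABCC1 and 0.19 for ABCC3, beside 0.31 for ABCC4. Around ABCG2, 3 of the 27 genes within 5 Mb rose and 4 fell (11.1% and 14.8%, beside 16.8% and 13.0% of all genes tested). HERC5, HERC6, HERC3 and PKD2, among these, are named after their values were seen. The ubiquitin ligase genes HERC5 and HERC6 fell by 0.76 and 0.75 on the log2 scale, and HERC3 rose by 0.56 (limma adjusted p = 0.00302, 0.00109 and 0.00488). PKD2, which encodes polycystin and lies beside ABCG2, fell to 4.61 and 4.57 FPKM in the libraries labelled knockdown, against 7.27 and 7.26 FPKM in control (limma adjusted p = 0.00254). ABCC6, the neighbour of ABCC1 on chromosome 16, had 1.89 and 1.66 FPKM in the libraries labelled knockdown, against 2.04 and 2.17 FPKM in control, and was not called (limma adjusted p = 0.274).

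**Figure D3:**
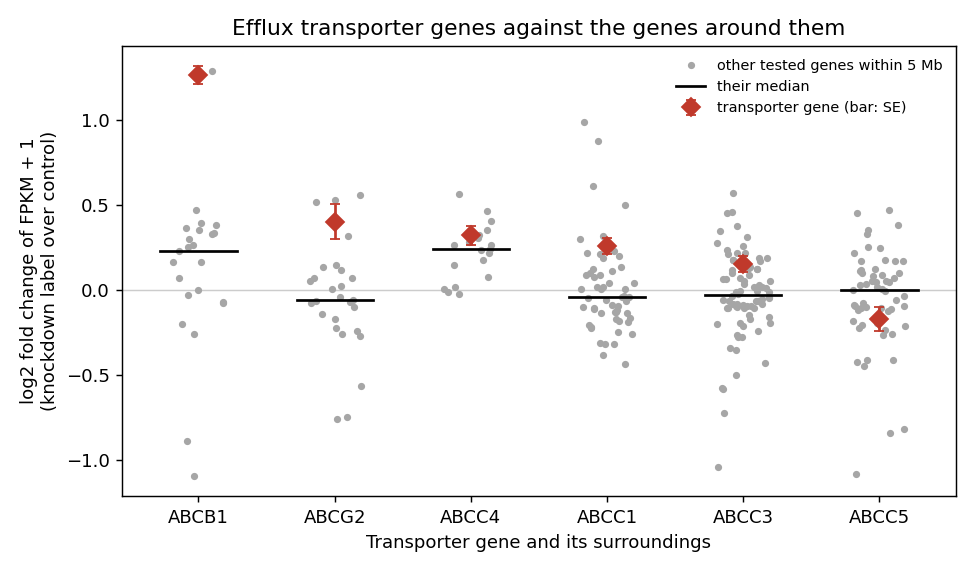
Log2 fold change of FPKM + 1 of the 6 members that were fitted (red diamonds, bar SE), beside those of the other tested genes within 5 Mb (grey points) and their median (black bar). ABCB1 stands 1.03 above its median and ABCC4 0.08 above its own, with ABCG2 at 0.46, ABCC1 at 0.30, ABCC3 at 0.18 and ABCC5 at -0.17.

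Genes with the profile most like a member were sought among all tested genes by the root mean square difference of log2(FPKM + 1) over the 4 libraries, after each gene's mean was subtracted. Nearest to ABCB1 were CAMK2N1, an inhibitor of the kinase CaMKII (difference 0.0192), IL6R, the interleukin receptor subunit (0.0214), and GPAA1, a subunit of the GPI transamidase (0.0259). GPAA1 had 23.0 and 22.6 FPKM in the libraries labelled knockdown, against 8.63 and 8.59 FPKM in control. Nearest to ABCC4 were LMBRD2 (0.00263), ZFP69B (0.0102) and the adenosine receptor gene ADORA2B (0.0120). None of these 6 genes lies on the chromosome of its member, and a measure over 4 libraries in 2 groups mostly finds genes with the same fold change.

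Among the rest of the ABC superfamily, ABCB8 rose and TAP1, TAP2, ABCA3 and ABCA12 fell. Of 41 other ABC genes, 19 reached the filter, of which 1 rose and 4 fell, which is 5.26% and 21.1%, beside 16.8% and 13.0% of all genes tested. Their median log2 fold change was 0.00, the same as over all tested genes. ABCB8, a mitochondrial transporter on 7q, had 8.79 and 8.76 FPKM in the libraries labelled knockdown, against 6.27 and 6.56 FPKM in control (log2 fold change 0.40, limma adjusted p = 0.00550). ABCF2, also on 7q and named after its values were seen, was not called (log2 fold change 0.02, limma adjusted p = 0.826). The antigen peptide transporter genes TAP2 and TAP1 fell by 0.55 and 0.41 on the log2 scale, and ABCA3, which moves phospholipid in lung surfactant, fell by 0.43 (limma adjusted p = 0.00279, 0.00283 and 0.00411). ABCA12, a lipid transporter of keratinocytes, had 0.726 and 0.764 FPKM in the libraries labelled knockdown, against 1.57 and 1.49 FPKM in control, and its call (limma adjusted p = 0.0306) was lost without any 1 of the libraries (0.0890 to 0.121). ABCA12 passed the filter only through its level in control, and nothing is read from its place among the 4 that fell. ABCF1, a translation factor without a membrane domain, was the next by p and was not called (0.12, limma adjusted p = 0.0827). The cholesterol exporter genes ABCA1 and ABCG1, named after their values were seen, lay under the filter with means of 1.17 and 0.911 FPKM in the libraries labelled knockdown and 0.606 and 0.304 FPKM in control.

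**Figure D4:**
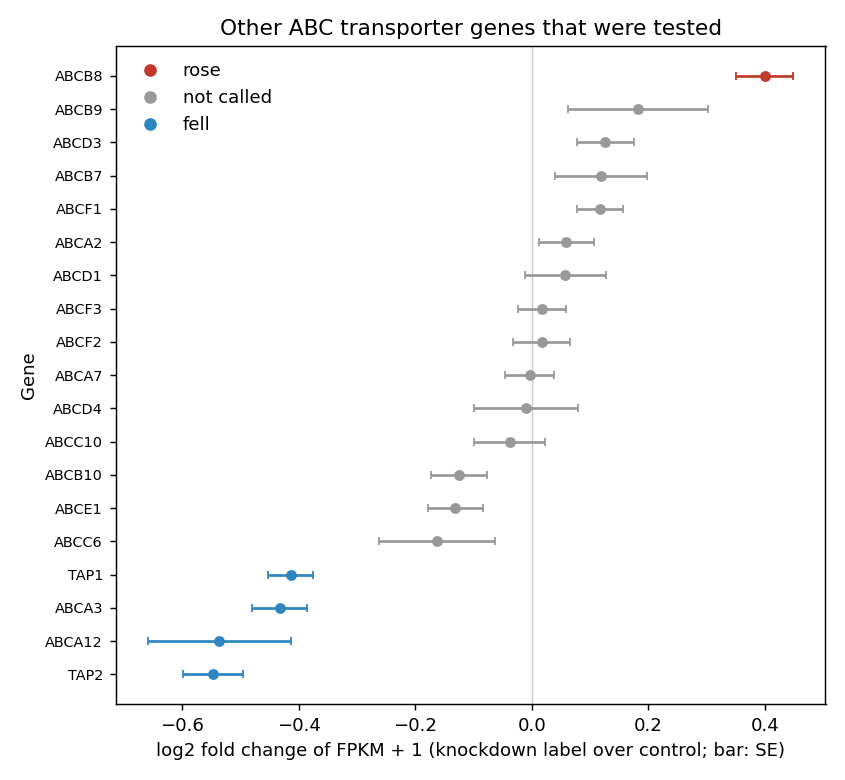
Log2 fold change of FPKM + 1, with its SE, of the 19 other ABC transporter genes that were tested, coloured by call. ABCB8 is the gene called higher, at 0.40, and TAP1, ABCA3, ABCA12 and TAP2 are the genes called lower, between -0.41 and -0.55.

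A list of 18 genes held transcription factors known to act on drug transporter genes. It also held KEAP1, named after its values were seen, which is not a transcription factor and was tested but not called. Of the 18, 14 were tested, and 7 rose and 2 fell (50% and 14.3%, beside 16.8% and 13.0% of all genes tested), with a median log2 fold change of 0.13. RXRA, the shared partner of nuclear receptors, had 19.8 and 20.3 FPKM in the libraries labelled knockdown, against 14.6 and 14.2 FPKM in control (log2 fold change 0.45, SE 0.0393, limma adjusted p = 0.00244). ARNT, the partner of the aryl hydrocarbon receptor, rose by 0.41, PPARG by 0.63, HNF4A, a regulator of enterocyte genes, by 0.27 and ESRRA by 0.19. The receptor itself, AHR, named after its values were seen, fell to 5.08 and 5.77 FPKM in the libraries labelled knockdown, against 6.54 and 6.84 FPKM in control (log2 fold change -0.26, limma adjusted p = 0.0494). The call of AHR lay close to the threshold. It was lost with no filter on low values and without any library but knockdown replicate 2. NFE2L2, the oxidative stress factor NRF2, fell to 23.8 and 24.9 FPKM in the libraries labelled knockdown, against 31.7 and 34.5 FPKM in control (log2 fold change -0.43, limma adjusted p = 0.00565). The call of PPARG was lost with no filter on low values, that of ESRRA without any 1 library (limma adjusted p 0.0572 to 0.0809), and that of HNF4A without any but knockdown replicate 1 (0.0432 to 0.0664). NR1I2, the pregnane X receptor, the drug sensor of ABCB1 in liver and gut, had 1 read in knockdown replicate 2 and 0 in the other 3 libraries.

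Genes of drug metabolism and of glutathione were called in both directions, as were genes at large. Of 40 metabolism enzymes, 24 were tested, and 6 rose and 5 fell (25% and 20.8%, beside 16.8% and 13.0% of all genes tested), with a median log2 fold change of -0.01. GSTM3, a glutathione transferase, had 29.2 and 28.7 FPKM in the libraries labelled knockdown, against 48.1 and 52.2 FPKM in control (log2 fold change -0.77, limma adjusted p = 0.00135), with the caution that reads of this multigene family may be shared. EPHX1, the microsomal epoxide hydrolase, fell by 0.31. The glutathione transferases GSTK1 and GSTO1 rose by 0.54 and 0.36, the cytochrome CYP2S1 by 0.47 and the thiopurine methyltransferase TPMT by 0.47. GSTK1 lies on 7q, as does AKR1B10, named after its values were seen, which was not called (log2 fold change 0.18, limma adjusted p = 0.441). Of 9 glutathione supply genes, 8 were tested, and 3 rose and 2 fell (37.5% and 25%, beside the same 16.8% and 13.0%), at a median of 0.11. GCLC, the catalytic subunit of the first step of glutathione synthesis, had 19.1 and 20.3 FPKM in the libraries labelled knockdown, against 13.6 and 13.9 FPKM in control (log2 fold change 0.49, limma adjusted p = 0.00293). GSS and GSR rose by 0.24 and 0.21, while the amino acid carrier subunit SLC3A2 fell by 0.15. The modifier subunit GCLM was not called at 0.17. The call of SLC3A2 was lost without any 1 library (limma adjusted p 0.0663 to 0.0905), that of GSS without any but knockdown replicate 1 (0.0432 to 0.0640) and that of GSR without any but control replicate 2 (0.0344 to 0.0640).

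Drug uptake carriers numbered 22, of which 10 were tested, and 3 rose and 3 fell (30% each, beside 16.8% and 13.0% of all genes tested), at a median of -0.15. SLC22A18, an organic cation transporter-like gene of 11p15, had 23.8 and 24.1 FPKM in the libraries labelled knockdown, against 8.72 and 9.48 FPKM in control (log2 fold change 1.30, SE 0.0510, limma adjusted p = 0.000734). It shares 227 exon bases with the opposite-strand gene SLC22A18AS, which averaged 5.31 FPKM in the libraries labelled knockdown and 2.40 FPKM in control, and strand was not stated. SLCO2B1, an organic anion uptake carrier of enterocytes, rose by 0.80 and SLCO4A1 by 0.29, the SLCO4A1 call being lost without either library labelled knockdown (limma adjusted p 0.0202 to 0.0612 over the 4). SLC29A2, a nucleoside carrier, SLC19A1, the reduced folate and methotrexate carrier, and SLC31A1, the copper and cisplatin carrier, fell by 0.44, 0.41 and 0.19 on the log2 scale, the call of SLC31A1 being lost without any 1 of the libraries (limma adjusted p 0.0588 to 0.143). Of 12 anchors and traffic proteins of apical transporters, 10 were tested, and 4 rose and 2 fell (40% and 20%, beside the same 16.8% and 13.0%), at a median of 0.09. EZR (ezrin), which ties apical transporters to actin, had 267 and 265 FPKM in the libraries labelled knockdown, against 200 and 208 FPKM in control (log2 fold change 0.38, limma adjusted p = 0.00231). The vault protein gene MVP and RAB11A rose by 0.22 and 0.18, while the scaffold NHERF1 fell by 0.18 and PDZK1IP1 by 0.61. With a library left out, limma adjusted p was 0.0558 to 0.107 for RAB11A, which kept no call, and it was 0.0382 to 0.0734 for MVP (called only without control replicate 1) and 0.0414 to 0.129 for NHERF1 (only without knockdown replicate 2). The fall of PDZK1IP1 was not called with no filter on low values, nor when control replicate 2 was left out (limma adjusted p = 0.0597). The copper ATPase ATP7B of chromosome 13 rose by 0.34 (limma adjusted p = 0.0204), a call lost without any 1 of the libraries (0.0672 to 0.0907), and ATP7A of the X chromosome was not called at 0.18.

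**Figure D5:**
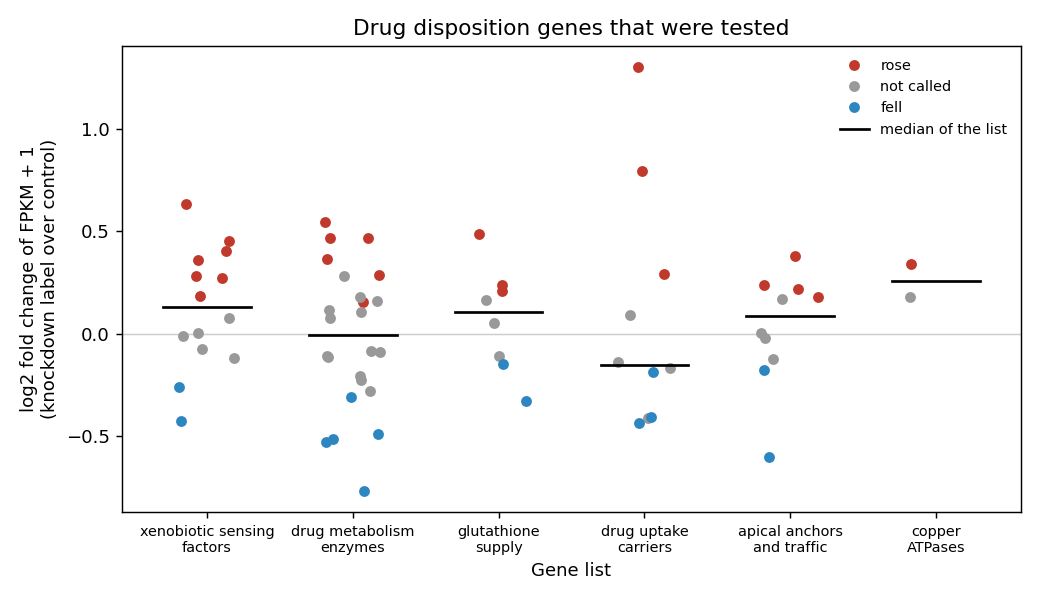
Log2 fold change of FPKM + 1 of each tested gene in the 6 drug disposition lists, coloured by call, with the list's median as a black bar. The medians lie between -0.15 for the uptake carrier list, which includes the exporter SLC47A1, and 0.26 for the 2 copper ATPases. The highest point is SLC22A18 at 1.30.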

How the data were processed

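The deposited tables, 1 per library, hold FPKM per gene as the authors made them, per the file headers. Alignment with HISAT2 2.0.5 and the build hg18 are named in the submitters' processing notes. They name no counter, strand setting or filter. Every one of the 58735 gene IDs matched GENCODE 29, so positions are on GRCh38. FPKM times union exon length gave whole reads (100% of values above 0, tolerance 0.01 of a read), which are the reads quoted. The 12777 genes whose FPKM averaged 1 or more were fitted on log2(FPKM + 1) by limma with an intensity trend (limma 3.58.1, R 4.3.3), with group as the only term and 2 residual degrees of freedom. P-values were two-sided, adjusted by Benjamini-Hochberg over all of these genes, and a call is an adjusted p under 0.05. The fit was tested on simulated data. Alternatives were quantile normalization, no filter, a minimum mean of 5 FPKM, a pseudocount of 0.1, a replicate block, each library left out in turn, limma-voom on whole reads, and scaling to non-mitochondrial reads; windows of 2 and 10 Mb were set beside 5 Mb.

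The members, lists and regions were chosen with earlier results of these data known. Named genes are the members, PPDPF, up to 6 genes per list by smallest p, ABCB4 and ABCC6. The 4 nearest tested genes on each side of ABCB1 and ABCC4 and the 3 most alike in profile are named too. Genes outside this rule are to be taken as named after their values were seen, which is said at most of them. Some genes that this rule names are not reported here. Listed NHERF1 and NHERF2 were matched through current gene names. Libraries of a group differed beyond sampling noise (chi-square per gene 2.31 for the libraries labelled knockdown and 2.43 for control). Python 3.11.15, pandas 2.3.3, numpy 2.4.6 and matplotlib 3.10.9 were used.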

Additional observations from a re-analysis of the deposited data

How the results depend on the processing

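In 11 alternative settings, no member that was fitted changed sign. Log2 fold changes ranged from 1.24 to 1.47 for ABCB1, 0.29 to 0.55 for ABCG2, 0.26 to 0.39 for ABCC4, 0.21 to 0.31 for ABCC1, 0.12 to 0.18 for ABCC3 and -0.24 to -0.10 for ABCC5. Of 59 other named genes with a call, 33 kept it in every setting they were fitted in, and 25 lost it without at least 1 library. With 2 libraries a group, counts of calls are the least settled values here.

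With no filter on low values, 1134 of the 28965 genes fitted rose and 734 fell. The calls higher were 1 of 7 members, 4 of 17 in the transcription factor list, 2 of 12 anchors and 0 of 2 copper ATPases. The calls lower were 1 of 17 in the transcription factor list, 3 of 36 metabolism enzymes and 0 of 12 anchors. With limma-voom on whole reads, 2502 of 12777 genes rose and 2709 fell. In that setting 5 of 6 members, 2 of 19 other ABC genes and 2 of 2 copper ATPases rose. The calls lower were 1 of 6 members, 8 of 24 enzymes and 6 of 10 in the uptake carrier list. With a mean FPKM of 5 or more, 1999 of 7876 genes rose and 1485 fell. There 1 of 9 anchors fell, and no copper ATPase was fitted.

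Leaving out 1 library at a time, 1141 to 1345 genes rose and 775 to 919 fell. The counts that rose were 1 to 2 for members, 3 to 5 for transcription factors, 4 to 5 for enzymes, 1 to 2 for glutathione genes, 2 to 3 for uptake carriers, 1 to 2 for anchors and 0 for copper ATPases. The counts that fell were 1 to 2 for transcription factors, 3 to 5 for enzymes, 1 for glutathione genes, 2 for uptake carriers, 0 to 2 for anchors and 3 for other ABC genes.

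With the replicate number as a block, 1899 of 12777 genes rose and 1405 fell, and 3 of 6 members were called higher. Same-numbered libraries did not deviate together across genes (correlation -0.00206), which cannot decide whether they were handled as pairs.

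Signs turned for 6 neighbours near 0. RNU6-62P was -0.069 with a pseudocount of 0.1, -0.0565 with limma-voom and -0.00788 scaled to non-mitochondrial reads, and -0.736 to 0.767 with a library left out. GPR180 was -0.0124 with quantile normalization, -0.0185 with limma-voom and -0.0229 scaled to non-mitochondrial reads, and -0.0348 to 0.0455 with a library left out. DNAJC3-DT was 0.00715 with quantile normalization and -0.0823 to 0.0316 with a library left out. CROT ranged from -0.201 to 0.0436, DBF4 from -0.0695 to 0.0146 and UGGT2 from -0.0492 to 0.0256 with a library left out. The cause was not tested. PPDPF was called higher without control replicate 2, with limma-voom and with a mean FPKM of 5 or more.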
